A study of Caenorhabditis elegans with 4 samples.

Results

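Aminoacyl-tRNA synthetases are the enzymes that join each amino acid to its own transfer RNA, the step that supplies charged tRNA to the ribosome. Most amino acids need one enzyme for the cytosol and one for mitochondria, which have their own ribosomes and tRNAs, although the mitochondrial enzymes are also encoded in the nucleus. The enzymes fall into class I and class II, which differ in the fold of the catalytic domain. Uncharged tRNA that builds up when charging falls behind is sensed by the kinase GCN-2, which slows translation initiation.

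The genes described here are the 32 of 46766 genes in the deposited table whose name is a letter for the amino acid followed by ars and the number 1 or 2, such as sars-1 for serine. They cover all 20 amino acids. There were 20 genes with suffix 1 and 12 with suffix 2, and 12 amino acids had a gene of each kind. The suffix stood for the cytosolic (1) and the mitochondrial (2) enzyme in the choice of the genes, but the deposited descriptions go against this for alanine, where aars-1 is named as the mitochondrial and aars-2 as the cytoplasmic enzyme. A compartment was named for 9 of the 32 genes. The valine gene vars-2 is also known as glp-4 and is counted as cytosolic from general knowledge of the worm, with vars-1 as mitochondrial, since neither description names a compartment. The number is therefore used as a label, and values are also given with the alanine and valine genes exchanged.

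The RNA came from whole worms of the wild-type strain N2, synchronized and 22 days old, which were old worms. The control group received water, and the treated group received Gengnianchun (GNC), a mixture of water extracts of herbs, at 3.94 mg/mL. The protocol describes S-complete liquid medium with E. coli OP50 as food in both groups, whereas the series description names NGM, a solid medium. There were 2 libraries in each group, and nothing in the labels says whether they came from separate cultures, so p-values measure only the spread between these libraries.

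The total count was 18639631 to 21753657 per library, and every synthetase gene had from 371 to 11013 counts in every library. All 32 passed the filter on low counts. Replicates differed by more than sampling noise in both groups (chi-square per degree of freedom 6.72 in control and 6.98 in GNC). Changes were tested with edgeR's quasi-likelihood test on 16341 genes, with TMM scaling of the libraries and Benjamini-Hochberg adjusted p-values (FDR). CPM are counts after that scaling, brought to a common library size. FPKM are the deposited values, which divide the count by gene length and by the library total, and levels of different genes are compared only in FPKM. Sequences of these genes were not analysed here.

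GNC-treated worms had slightly less RNA of many synthetase genes. At an FDR under 0.05, 14 of the 32 genes (43.8%) were lower with GNC, where 20.5% of all genes tested were lower. None was higher, where 19.8% of all genes were. The changes were small. The log2 fold change ranged from -0.47 for fars-2 to 0.06 for dars-1, with a median of -0.15, against 0.02 for all genes tested. It was below 0 in 27 of 32 genes (84.4%), compared with 48.1% of all genes.

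None of the 32 genes reached a 2-fold change in edgeR's test, whereas 2.23% of all genes were called lower and 4.97% higher at that threshold and an FDR under 0.05. At an unadjusted p under 0.05, 17 synthetase genes were lower and 0 were higher, where 24.4% and 24.2% of all genes were. At an FDR under 0.05, DESeq2 called 12 genes lower (37.5%) and 0 higher, where it called 15.4% and 13.2% of all genes. At the same FDR, limma on FPKM called 6 lower (18.8%) and 0 higher, where it called 8.33% and 19% of all genes. The 95% interval of the log2 fold change lay between -0.66 and 0.27 in every synthetase gene, so a change of 2-fold was outside the interval of each.

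**Figure D1:**
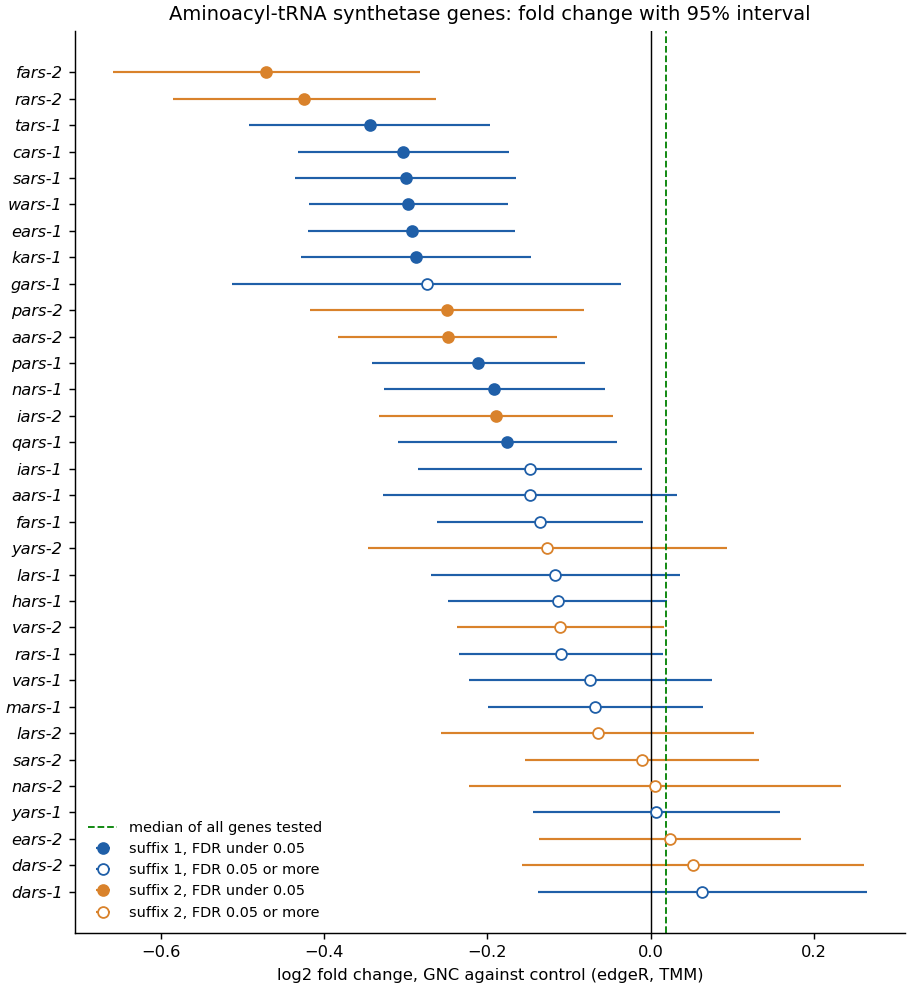
The log2 fold change of each of the 32 synthetase genes, GNC against control, with its 95% interval from edgeR. Filled points passed an FDR under 0.05, colours mark the suffix, and the dashed line is the median of all genes tested (0.02); the 14 filled points all lie left of 0.

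In CPM, both GNC libraries lay below both control libraries in 24 of the 32 genes (75.0%), where 34.5% of all genes did. None of the 32 had both GNC libraries above both control libraries, where 36.5% of all genes did. These counts depend on how the libraries are scaled. In FPKM, which are scaled by the library totals, 15 genes lay below, 5 above and 12 overlapped, where 25.2% of all genes lay below and 46.5% above. Over 7 scalings, 20 genes were below 0 in each one, none was above 0 in each one, and 12 changed sign.

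The scaling moved the all-gene median of the log2 fold change from 0.12 with library totals to -0.11 after rescaling to the same median. Relative to that median, the suffix 1 genes stood at -0.18 and the suffix 2 genes at -0.14 in the reported fit, and both stayed below it under every scaling tried. With offsets that depend on the expression level they stood at -0.05 and -0.06, and 7 of the 32 genes (21.9%) were lower at an FDR under 0.05, close to the 18.0% of all genes. With library totals 25.0% of the synthetase genes and 13.0% of all genes were lower.

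**Figure D2:**
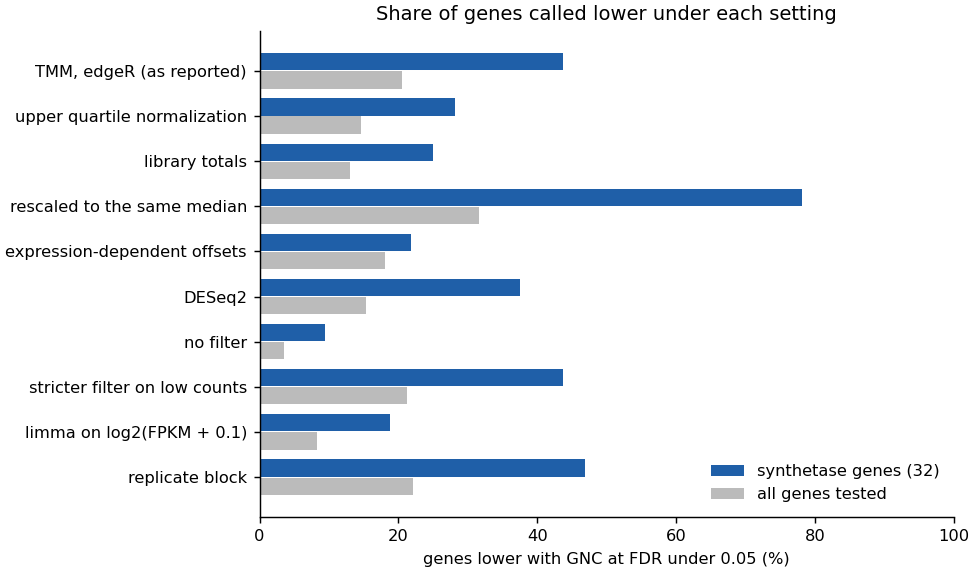
The share of genes called lower with GNC at an FDR under 0.05, in percent, for the 32 synthetase genes (blue) and for all genes tested (grey), under each setting. The blue bar is 43.8% in the reported fit, 78.1% after rescaling to the same median and 21.9% with expression-dependent offsets, where it comes closest to the grey bar.

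The largest fall was in fars-2 (WBGene00013361, chromosome V, 19898061 to 19907434, build WBcel235), which charges phenylalanine tRNA. It had 36.2 and 33.5 CPM in control and 24.7 and 25.5 CPM with GNC. The groups were well apart, and the log2 fold change was -0.47 (standard error, SE, 0.08; edgeR adjusted p = 0.00187). The partner fars-1 (chromosome I, 6211986 to 6214586) had 134 and 130 CPM in control and 117 and 123 CPM with GNC. Its log2 fold change was -0.14 with an adjusted p of 0.0837, so it did not pass the test. In the cytosol the phenylalanine enzyme is built from unlike subunits, and the gene of the beta subunit, fars-3, had a log2 fold change of -0.11 (adjusted p = 0.131 from edgeR).

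The next fall was in rars-2 (WBGene00004680, chromosome II, 6125559 to 6127946), which charges arginine tRNA. It had 51.2 and 48.5 CPM in control and 36.5 and 37.8 CPM with GNC. Its log2 fold change was -0.42 (SE 0.07), and its adjusted p of 0.00142 was the smallest among the 32 genes in edgeR's test. The partner rars-1 (chromosome III, 4914093 to 4917129), described as cytoplasmic, had 215 and 208 CPM in control and 198 and 194 CPM with GNC, a log2 fold change of -0.11 (adjusted p = 0.147).

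In both amino acids the suffix 2 gene therefore moved further than its partner. The ratio of the FPKM of the genes within 1 library does not depend on a scaling by 1 factor per library. Offsets that depend on the expression level can move it, since the genes of an amino acid differ in level. The ratio of fars-1 to fars-2 was 3.11 and 3.26 in control and 3.99 and 4.04 with GNC. The ratio of rars-1 to rars-2 was 2.23 and 2.27 in control and 2.88 and 2.72 with GNC. The groups did not overlap in either ratio. Permuting 2 against 2 libraries cannot give a two-sided p under 0.333, so no ratio could pass that permutation test, and no other test was run on the ratios.

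Glutamate and serine showed the opposite order. The glutamate gene ears-1 (chromosome I, 10336395 to 10341178) had 291 and 289 CPM in control and 239 and 234 CPM with GNC. Its log2 fold change was -0.29 (SE 0.06, edgeR adjusted p = 0.00278). Its partner ears-2 had 44.5 and 48.2 CPM in control and 47.3 and 47.1 CPM with GNC, with overlapping groups and a log2 fold change of 0.02 (adjusted p = 0.82 from edgeR). The ratio of ears-1 to ears-2 in FPKM was 2.66 and 2.44 in control and 2.06 and 2.02 with GNC.

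The serine gene sars-1 (chromosome IV, 10003726 to 10005583), described as cytoplasmic, was the most abundant synthetase gene, at 249 and 239 FPKM in control and 216 and 209 FPKM with GNC. In CPM it went from 463 and 455 to 379 and 367, a log2 fold change of -0.30 (SE 0.06, edgeR adjusted p = 0.00352). Its partner sars-2 stood at 60.3 and 59.8 CPM in control and 58.2 and 61.1 CPM with GNC, a log2 fold change of -0.01 (95% interval -0.15 to 0.13). The ratio of sars-1 to sars-2 was 8.59 and 8.50 in control and 7.29 and 6.71 with GNC.

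The asparagine gene nars-1, described as cytoplasmic, had 294 and 291 CPM in control and 265 and 247 CPM with GNC, a log2 fold change of -0.19 (adjusted p = 0.03 from edgeR). Its partner nars-2 had 20.4 and 23.0 CPM in control and 22.9 and 20.7 CPM with GNC, a log2 fold change of 0.01 (95% interval -0.22 to 0.23). The groups of nars-2 overlapped. The gene nars-2 shares 3880 bases of its span with Y66D12A.24 on the opposite strand, and the counting is not stated to use strand, so its value is uncertain. Of the 14 genes that passed, cars-1, ears-1, pars-2 and tars-1 also overlap another tested gene, by 170 bases with Y23H5A.2, 182 bases with aph-2, 116 bases with T27F6.6 and 4332 bases with kel-1.

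Proline was the amino acid whose genes both passed the test. The gene pars-1 had 242 and 228 CPM in control and 205 and 200 CPM with GNC, a log2 fold change of -0.21 (adjusted p = 0.0167 from edgeR). The gene pars-2 had 38.4 and 37.7 CPM in control and 31.8 and 32.2 CPM with GNC, a log2 fold change of -0.25 (adjusted p = 0.0241 from edgeR). The ratio of pars-1 to pars-2 overlapped between groups, at 7.73 and 7.42 in control and 7.92 and 7.65 with GNC.

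For isoleucine, iars-2 had 69.8 and 67.2 CPM in control and 61.5 and 58.6 CPM with GNC, a log2 fold change of -0.19 (adjusted p = 0.0393 from edgeR). Its partner iars-1, described as cytoplasmic, had 532 and 539 CPM in control and 489 and 479 CPM with GNC, a log2 fold change of -0.15 (adjusted p = 0.0822). One of these genes passed the threshold and the other did not, but the ratio of iars-1 to iars-2 overlapped, at 7.05 and 7.42 in control and 7.35 and 7.55 with GNC.

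For alanine, the cytoplasmic aars-2 had 495 and 495 CPM in control and 419 and 414 CPM with GNC, a log2 fold change of -0.25 (SE 0.06, edgeR adjusted p = 0.00885). The mitochondrial aars-1 had 43.1 and 38.9 CPM in control and 36.2 and 37.9 CPM with GNC, a log2 fold change of -0.15 (adjusted p = 0.176 from edgeR). The ratio of aars-2 to aars-1 was 9.40 and 10.4 in control and 9.49 and 8.95 with GNC, with overlapping groups.

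In valine, leucine, tyrosine and aspartate neither gene passed the test. The valine gene vars-2 had 287 and 282 CPM in control and 265 and 261 CPM with GNC (log2 fold change -0.11), and vars-1 had 52.7 and 51.5 CPM against 50.2 and 48.7 CPM (-0.07). In CPM the GNC libraries lay below the control libraries in both valine genes, whereas in FPKM the groups overlapped in both. The FPKM ratio of vars-2 to vars-1 stayed between 4.51 and 4.67 in all 4 libraries.

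The leucine gene lars-1 had 540 and 539 CPM in control and 474 and 521 CPM with GNC, a log2 fold change of -0.12, and its GNC libraries differed from each other. Its partner lars-2 had 36.9 and 32.8 CPM in control and 32.5 and 34.0 CPM with GNC, a log2 fold change of -0.06 with overlapping groups. The tyrosine gene yars-1 had 141 and 157 CPM in control and 145 and 155 CPM with GNC, a log2 fold change of 0.01. Its partner yars-2 had 87.7 and 73.2 CPM in control and 79.6 and 67.7 CPM with GNC, a log2 fold change of -0.13. In both tyrosine genes the replicates of a group were further apart than the groups.

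The aspartate gene dars-1, described as cytoplasmic, had 370 and 299 CPM in control and 353 and 346 CPM with GNC, a log2 fold change of 0.06 (95% interval -0.14 to 0.27). Control replicate 2 stood below the other libraries. Without control replicate 1, dars-1 was higher with GNC at a log2 fold change of 0.23 (adjusted p = 0.0221 from edgeR), and without control replicate 2 it was at -0.09 (adjusted p = 0.357 from edgeR). Its partner dars-2 had 21.8 and 20.6 CPM in control and 21.3 and 22.7 CPM with GNC, a log2 fold change of 0.05.

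**Figure D3:**
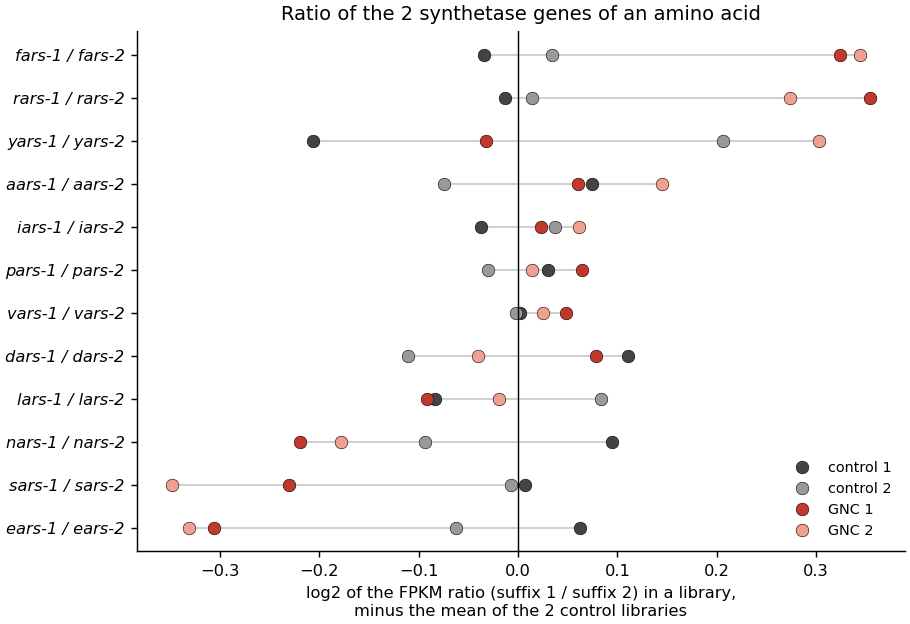
For the 12 amino acids with a gene of each suffix, the log2 of the FPKM ratio of suffix 1 to suffix 2 in each library, minus the mean of the 2 control libraries. The ratios of phenylalanine and arginine lie to the right with GNC (means 0.33 and 0.31) and those of glutamate and serine to the left (means -0.32 and -0.29), while most others overlap the control libraries.

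Over the 12 amino acids, the change of the log2 ratio of suffix 1 to suffix 2 ranged from -0.32 to 0.33, with a median of 0.04. The ratio was higher in each GNC library than in either control library for 3 amino acids (arginine, phenylalanine and valine), lower in 3 (asparagine, glutamate and serine), and overlapped in 6. With alanine and valine turned, so that each ratio is of the cytosolic to the mitochondrial gene, it was higher in 2, lower in 4 and overlapped in 6, and the median change was -0.0088. No share over other gene pairs was computed beside these counts, and the change of the vars-1 to vars-2 ratio was only 0.04. The counts show no common order by suffix, and nothing further is read from them. With expression-dependent offsets, nars-1 and nars-2 both had a log2 fold change of -0.068, so the lower asparagine ratio did not appear there.

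The other 8 amino acids had a suffix 1 gene alone. At an FDR under 0.05, 5 of these 8 genes (62.5%) were lower, where 20.5% of all genes were. In CPM, both GNC libraries lay below both control libraries in all 8, where 34.5% of all genes did. In FPKM, 5 lay below, 1 above and 2 overlapped, where 25.2% of all genes lay below and 46.5% above. The threonine gene tars-1 (WBGene00006617, chromosome II, 11691326 to 11695657), described as cytoplasmic, had 436 and 474 CPM in control and 364 and 352 CPM with GNC. Its log2 fold change of -0.34 (SE 0.07, edgeR adjusted p = 0.00272) was the largest fall among the suffix 1 genes. All 4332 bases of tars-1 lie within kel-1 on the opposite strand, but kel-1 had only 162 to 302 counts per library, against 7336 to 9074 for tars-1.

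The cysteine gene cars-1 had 246 and 233 CPM in control and 195 and 193 CPM with GNC, a log2 fold change of -0.30 (adjusted p = 0.00263 from edgeR). The tryptophan gene wars-1 (chromosome V, 18853127 to 18859221) had 116 and 115 CPM in control and 94.3 and 94.4 CPM with GNC, a log2 fold change of -0.30 (SE 0.05, edgeR adjusted p = 0.00216). In wars-1 the replicates of each group were close together, and the groups were far apart. The lysine gene kars-1, whose human counterpart supplies both cytosol and mitochondria, had 521 and 532 CPM in control and 442 and 420 CPM with GNC. Its log2 fold change was -0.29 (adjusted p = 0.00537 from edgeR). The glutamine gene qars-1 had 276 and 287 CPM in control and 256 and 242 CPM with GNC, a log2 fold change of -0.18 (adjusted p = 0.0412 from edgeR).

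The glycine gene gars-1, whose human counterpart also supplies both compartments, had 148 and 193 CPM in control and 148 and 134 CPM with GNC. Control replicate 2 stood above the other libraries, and the log2 fold change of -0.27 had an adjusted p of 0.0654 in edgeR's test. Without control replicate 1 it was -0.45 (adjusted p = 0.000611 from edgeR), without control replicate 2 it was -0.08 (adjusted p = 0.462 from edgeR), without GNC replicate 1 it was -0.35 (adjusted p = 0.00725 from edgeR) and without GNC replicate 2 it was -0.20 (adjusted p = 0.129 from edgeR), and DESeq2 with all libraries gave an adjusted p of 0.0427. With the replicate number as a block it was 0.0245. The histidine gene hars-1 had 166 and 154 CPM in control and 150 and 145 CPM with GNC, a log2 fold change of -0.11 (adjusted p = 0.159 from edgeR). The methionine gene mars-1, described as cytoplasmic, had 350 and 358 CPM in control and 333 and 342 CPM with GNC, a log2 fold change of -0.07 (adjusted p = 0.392 from edgeR).

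Of the 14 genes that passed, fars-2, rars-2 and wars-1 passed under all 13 alternative settings. Leaving out 1 library left a group with 1 library. Fewer synthetase genes and a smaller share of all genes were then called lower than in the reported fit. Without GNC replicate 2 the suffix 1 median was -0.18 and the suffix 2 median -0.10. The genes that lost their call when some single library was left out were iars-2, nars-1, pars-1, pars-2 and qars-1. The call of iars-2 was lost with each library left out (adjusted p from 0.0578 to 0.209 in edgeR), and that of nars-1 without control replicate 1 (0.0611) or GNC replicate 2 (0.202). The call of pars-1 was lost without the same libraries (0.0636 and 0.0728), that of pars-2 without control replicate 1 (0.0611), GNC replicate 1 (0.119) or GNC replicate 2 (0.0877), and that of qars-1 without control replicate 2 (0.106) or GNC replicate 2 (0.224).

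With expression-dependent offsets, cars-1, ears-1, fars-2, pars-2, rars-2, tars-1 and wars-1 were lower at an FDR under 0.05. The calls of aars-2 (adjusted p = 0.155 from edgeR), iars-2 (0.205), kars-1 (0.0767), nars-1 (0.416), pars-1 (0.248), qars-1 (0.518) and sars-1 (0.0508) were lost there.

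The levels of the synthetase genes separated more clearly once alanine and valine were exchanged than by suffix. The descriptions name a compartment for 9 of the 32 genes. The other compartments were taken from the suffix, and that of valine from general knowledge. Averaged over the 4 libraries, sars-1 (228 FPKM) and dars-1 (182 FPKM) were the highest and lars-2 (10.7 FPKM), dars-2 (11.4 FPKM) and pars-2 (11.4 FPKM) the lowest. The 20 suffix 1 genes ranged from 12.5 FPKM for aars-1 to 228 FPKM. The 12 suffix 2 genes ranged from 10.7 FPKM to 119 FPKM for aars-2. With alanine and valine exchanged, the 20 genes counted as cytosolic, kars-1 and gars-1 among them, ranged from 57.7 FPKM (fars-1) to 228 FPKM. The 12 counted as mitochondrial ranged from 10.7 FPKM to 41.2 FPKM (yars-2), so that these ranges did not overlap. Alanine and valine are the amino acids whose suffix 2 gene was the more abundant, so this split rests in part on the exchange.

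**Figure D4:**
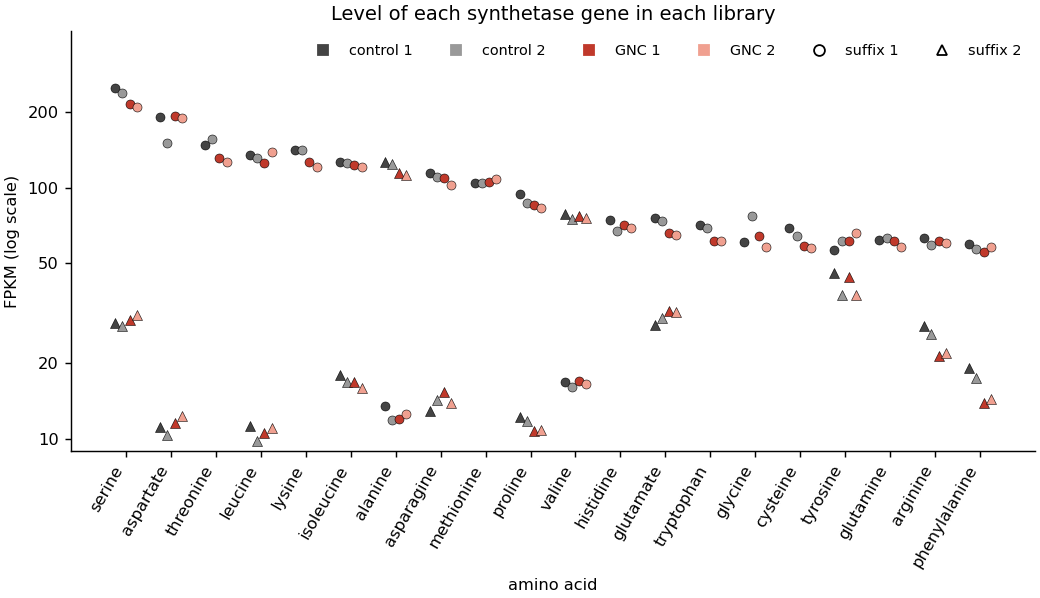
The FPKM of each synthetase gene in each of the 4 libraries on a log axis, by amino acid, with circles for suffix 1 and triangles for suffix 2. Where an amino acid has a gene of each suffix, the circles lie higher except for alanine and valine, whose suffix 2 genes average 119 and 76.7 FPKM.

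Among amino acids with both genes, suffix 1 was the more abundant in 10 and suffix 2 in 2, which were alanine and valine. The FPKM ratio of the more abundant gene to its partner ranged from 1.49 for tyrosine to 15.9 for aspartate.

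The summed CPM of the suffix 1 genes was 5576 and 5571 in control and 4933 and 4877 with GNC, a log2 ratio of -0.18. The summed CPM of the suffix 2 genes was 1250 and 1221 in control and 1101 and 1083 with GNC, a log2 ratio of -0.18. The GNC libraries lay below the control libraries in both sums, and each had a two-sided p of 0.333 in an exact permutation test over the libraries, which is the smallest that 2 against 2 allows. The genes aars-2 and vars-2 hold much of the suffix 2 sum. With alanine and valine exchanged, the log2 ratio was -0.19 for the cytosolic sum (6263 and 6257 CPM against 5531 and 5466 CPM) and -0.14 for the mitochondrial sum (563 and 535 CPM against 503 and 494 CPM).

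As a share of all counts, which scales by the library totals alone, the 32 genes made up 0.666% and 0.648% in control and 0.625% and 0.616% with GNC. These shares did not overlap between groups. With alanine and valine exchanged, the cytosolic share was 0.611% and 0.597% in control and 0.573% and 0.565% with GNC. The mitochondrial share overlapped between groups, at 0.0549% and 0.0510% in control and 0.0521% and 0.0511% with GNC.

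The median log2 fold change was -0.16 in the suffix 1 genes and -0.12 in the suffix 2 genes. At an FDR under 0.05, 9 of 20 (45.0%) and 5 of 12 (41.7%) were lower, where 20.5% of all genes were. The difference between the medians of -0.04 was not tested, since the genes are not replicates. It was -0.08 with alanine and valine exchanged and 0.01 with expression-dependent offsets. Without control replicate 2 the suffix 2 median was -0.19, and the difference changed sign to 0.02.

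The median was -0.12 in the 16 class I genes and -0.20 in the 16 class II genes. At an FDR under 0.05, 6 of the 16 class I and 8 of the 16 class II genes were lower, where 20.5% of all genes were. The summed CPM went from 3338 and 3328 to 2996 and 3010 in class I and from 3488 and 3464 to 3038 and 2950 in class II. The GNC libraries were lower in both classes, and the difference between classes was not tested.

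Among synthetases outside the naming rule, the table describes prx-10 as the mitochondrial tryptophan enzyme and Y105E8A.20 as the mitochondrial methionine enzyme, although the symbol prx stands for peroxins. These were found after the values were seen. The gene prx-10 had 49.6 and 46.3 CPM in control and 37.6 and 36.2 CPM with GNC, a log2 fold change of -0.38 (adjusted p = 0.00314 from edgeR). The gene Y105E8A.20 had 982 and 1006 raw counts in control and 1345 and 1194 raw counts with GNC, before scaling, a log2 fold change of 0.14 (adjusted p = 0.127 from edgeR). With these genes and fars-3 added, 15 of 35 genes were lower and 0 higher at an FDR under 0.05. Of all genes, 20.5% were lower and 19.8% higher.

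Among the elongation factors are those that carry charged tRNA to the ribosome and those that move the ribosome along. Of 6 cytosolic elongation factor genes, none passed the test in either direction, with log2 fold changes from -0.19 to -0.03 and a median of -0.15. The most abundant, eef-1A.1, which delivers charged tRNA, had 9820 and 11050 CPM in control and 9204 and 9443 CPM with GNC (adjusted p = 0.199 from edgeR).

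At an FDR under 0.05, all 4 mitochondrial elongation factor genes tested were lower, where 20.5% of all genes were. The mitochondrial EF-Tu gene tufm-1 had 139 and 125 CPM in control and 98.3 and 99.2 CPM with GNC, a log2 fold change of -0.42 (adjusted p = 0.000748 from edgeR). The mitochondrial elongation factor G gene gfm-1 stood at -0.27, tsfm-1 at -0.31 and tufm-2 at -0.22. A further listed gene, gfm-2, was not found by name.

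Of 16 genes for tRNA maturation and modification, 10 were lower and 0 higher at an FDR under 0.05, with a median log2 fold change of -0.25. Of all genes, 20.5% were lower and 19.8% higher. Calls in this list and in the other pathway and marker lists are from the reported fit alone. The ribonuclease Z gene hoe-1, which trims the end of tRNA precursors, had 196 and 193 CPM in control and 149 and 148 CPM with GNC, a log2 fold change of -0.39 (adjusted p = 0.000488 from edgeR). The RNA kinase gene clpf-1 stood at -0.36, the Elongator gene elpc-3, which acts on wobble uridines, at -0.33, and the gene hpo-31, for the enzyme that adds the CCA end, at -0.34.

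Of 5 genes linked to the sensing of uncharged tRNA, 1 was higher and 2 were lower, where 19.8% and 20.5% of all genes were. The kinase gene gcn-2 had 74.9 and 73.8 CPM in control and 67.9 and 65.7 CPM with GNC, and it did not pass the test (log2 fold change -0.15, adjusted p = 0.0686 from edgeR). The gene atf-5, which encodes the worm's counterpart of the transcription factor ATF4, had 70.7 and 75.1 CPM in control and 85.5 and 82.1 CPM with GNC. It was higher with a log2 fold change of 0.20 (adjusted p = 0.0282 from edgeR). The genes abcf-3 (-0.27) and iftb-1, a subunit of the initiation factor that GCN-2 acts on (-0.33), were lower.

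The samples were whole worms, in which fewer cells of a type and less RNA per cell cannot be told apart. At an FDR under 0.05, 9 of 10 germline and oocyte markers were lower with GNC and 0 higher. Of all genes, 20.5% were lower and 19.8% higher at that FDR. The summed level of these markers was 2977 to 2985 CPM in control and 2011 to 2092 CPM with GNC. Of the 7 sperm markers, 5 were higher and 0 lower, with sums of 257 to 263 CPM in control and 337 to 356 CPM with GNC. None of the markers in either list was at 0 in all libraries. The part of these shifts in the lower synthetase levels was not tested.

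Of 8 intestine markers, 2 were higher and 3 lower at an FDR under 0.05, where 19.8% and 20.5% of all genes were. The intestine markers summed to 765 to 855 CPM in control and 667 to 692 CPM with GNC. Within that sum, asp-1 alone went from 358 and 435 CPM in control to 268 and 245 CPM with GNC. The 2 higher genes were act-5 and elt-2. Of 5 muscle markers, 2 were higher and 1 lower, and of 6 neuron markers, 2 were higher and 0 lower. Muscle markers summed to 1177 to 1347 CPM in control and 1296 to 1328 CPM with GNC. Neuron markers summed to 742 to 847 CPM in control and 849 to 862 CPM with GNC. Among 5 hypodermis markers, 2 passed the filter on low counts, of which 0 were higher and 1, lin-26, was lower. These 5 markers summed to 151 to 165 CPM in control and 142 to 145 CPM with GNC.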

How the data were processed

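The authors extracted total RNA, sequenced it on an Illumina instrument and deposited 1 table with raw fragment counts and FPKM per gene and library. The submitters' processing notes list CASAVA 1.8, TopHat2 2.1.0, Cuffdiff and WBcel235; the counter, annotation release and strand setting are not given in the sources used here. The deposited FPKM of all 10376 genes whose 4 counts each reached 100 equalled the count divided by 1 gene length and the library total, to within 1%. Gene positions are those of the table; 4 of the 32 were identical in the Ensembl WBcel235 annotation, so boundaries depend on the release. Of the 32 genes, 10 overlap another tested gene.

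The counts were analysed with edgeR 4.0.16 (R 4.3.3): filterByExpr left 16341 genes, libraries were scaled by TMM, and a model of treatment alone was tested by quasi-likelihood. The study's methods ask for a 2-fold change together with an FDR under 0.05. Calls by that rule are given, and calls by the FDR alone, which are the ones described gene by gene, are a choice made here. On simulated counts for 16341 genes with 200 changed, 94% of changes of 2 on the log2 scale were recovered, 78% of 1, 36% of 0.5 and 4% of 0.25, and 6 of 16141 unchanged genes were called. A small change that missed the threshold is therefore not shown to be absent. The power in the data can differ, since far more genes changed there. The genes, lists and tests were chosen with earlier results of these data known. All 32 genes are accounted for; from the pathway lists, up to 4 genes with the smallest FDR were named, with eef-1A.1 and gcn-2 added after their values were seen. Glp-4, ears-3, tars-3, gfm-2, atf-4, eif-2alpha, nsun-2 and adat-1 did not match a name in the table, and vars-2 is there under that name.

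The alternatives were upper quartile normalization, library totals, rescaling to the same median, expression-dependent (loess) offsets, DESeq2 1.42.0, no filter, a filter of 10 counts in every library, limma 3.58.1 on log2(FPKM + 0.1), keeping genes that reached 1 FPKM in 2 libraries, a replicate block, and each library left out. The addition of 3 further synthetase genes was an alternative chosen after seeing the data.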

Additional observations from a re-analysis of the deposited data

How the results depend on the processing

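The count of 14 synthetase genes lower at an FDR under 0.05 moved with the scaling and the filter. It was 9 with upper quartile normalization (14.6% of all genes were lower), 8 with library totals (13.0%), 25 once rescaled to one median (31.6%), 7 with expression-dependent offsets (18.0%), 3 with no filter (3.52% of 29615 genes) and 6 with limma on FPKM (8.33%). It was 12 with DESeq2 (15.4%), of which 11 were among the 14, and 14 with the stricter filter (21.3%). With 1 library left out it was 9 to 13, and from 0 to 1 genes were higher. No synthetase gene passed the FDR with a 2-fold change in any setting. Other pseudocounts on FPKM were not run, since counts were given.

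The suffix 1 and suffix 2 medians were -0.084 and -0.041 with upper quartile normalization, -0.060 and -0.017 with library totals, -0.29 and -0.25 once rescaled to one median, -0.060 and -0.067 with expression-dependent offsets, and -0.059 and -0.017 for limma. Without a filter the suffix 1 median was -0.13, and with alanine and valine exchanged it was -0.18. With 1 library left out, the suffix 1 median was -0.19 to -0.16, the suffix 2 median -0.19 to -0.085 and their difference -0.077 to 0.021. The difference was 0.0063 with expression-dependent offsets.

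None of the 14 genes changed direction. Among the others, these log2 fold changes changed sign. With upper quartile normalization, lars-2 was at 0.013, mars-1 was at 0.0095, sars-2 was at 0.067, vars-1 was at 0.0038. With library totals, lars-2 was at 0.037, mars-1 was at 0.034, sars-2 was at 0.091, vars-1 was at 0.028. After rescaling to the same median, dars-1 was at -0.068, dars-2 was at -0.079, ears-2 was at -0.11, nars-2 was at -0.13, yars-1 was at -0.12. With expression-dependent offsets, dars-2 was at -0.023, lars-1 was at 0.026, mars-1 was at 0.062, nars-2 was at -0.068, rars-1 was at 0.0067, sars-2 was at 0.059, vars-2 was at 0.013. With limma on FPKM, lars-2 was at 0.039, mars-1 was at 0.034, sars-2 was at 0.091, vars-1 was at 0.028. With DESeq2, nars-2 was at -0.0058, yars-1 was at -0.0043. Without a filter, sars-2 was at 0.019. With 1 library left out, dars-1 ranged from -0.086 to 0.23, ears-2 ranged from -0.030 to 0.078, lars-2 ranged from -0.15 to 0.024, nars-2 ranged from -0.075 to 0.091, sars-2 ranged from -0.049 to 0.024, yars-1 ranged from -0.065 to 0.080, yars-2 ranged from -0.26 to 0.011. The cause of these moves was not tested.

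Control and GNC libraries carry the numbers 1 and 2, and the deviations of libraries with one number from their group means correlated at r = 0.04 over genes, so the numbers were not taken as pairs. A replicate block gave 15 lower genes, the 14 calls and gars-1. Groups of 2 libraries are too small to test for outlying samples.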
